A study of Homo sapiens with 8 samples.

Results

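Transcripts of 10 genes whose products tumor cells show to immune cells were followed in triple-negative breast cancer cells: CD274, PDCD1LG2, CD276, CD47, NT5E, PVR, ICAM1, LGALS9, ULBP2 and MICA. Each was found by its symbol, and each matched 1 of the 55679 gene identifiers in the count table. RNA came from MDA-MB468 and BT549 cells, established lines of this cancer, as 8 libraries. In each line both parental and CE cells were sampled, as control and after 6 hours in 1 μmol/L Acetalax. CE (chronic exposure) cells are populations selected by growth in up to 40 μmol/L Acetalax and kept free of the drug for 2 weeks, 1 population per line. Acetalax (oxyphenisatin acetate) is a laxative that kills parental cells of both lines, and the study names the cation channel TRPM4 as its target. The study reports that CE cells of both lines are resistant to the drug and hold hardly any TRPM4 protein. Every condition of a line rests on a single library. Tests of Acetalax therefore use the lines and the CE state (together, 4 backgrounds) as replicates. Tests between the lines use CE states and treatments, and tests of CE cells use lines and, where treated cells are included, treatments. In both, control and treated libraries of the same population stand as replicates.

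T cells carry inhibitory receptors that are engaged by ligands on tumor cells, among them PD-1, which binds the products of CD274 (PD-L1) and PDCD1LG2 (PD-L2). Interferon-gamma, through JAK and STAT proteins, and NF-kB are known inducers of CD274 and ICAM1. Other ligands reach phagocytes (CD47), natural killer cells (MICA, ULBP2, PVR) or the metabolism of the surroundings (NT5E makes adenosine, which restrains lymphocytes). ICAM1 holds leukocytes by their integrins. Only RNA was measured here, and the amount of these proteins at the cell surface was not.

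Counts on genes were between 42261122 and 54241728 per library, so 1 CPM (the unit of counts scaled to a common library total) stands for 42.3 to 54.2 counts. The epithelial genes EPCAM and CDH1 were at 118.9 CPM or more in MDA-MB468 control cells and below 1 CPM in BT549 control cells, while VIM was at 863.8 CPM or more in BT549 control cells. PGR did not exceed 0.627 CPM and ESR1 5.15 CPM in any library. ERBB2 was at 41.2 to 95.2 CPM. Of 11 leukocyte markers, CD3D, CD3E, CD2 and MS4A1 were at 0 in all 8 libraries and PTPRC (CD45) did not exceed 0.756 CPM. The summed level of the list was 1.82 to 3.66 CPM in BT549 and 17.1 to 55.0 CPM in MDA-MB468, mainly from CD14 and CSF1R. In bulk RNA, fewer cells with a transcript and less transcript per cell cannot be told apart.

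Per exon length (FPKM, CPM per kilobase of merged exons), NT5E was the most abundant of the 10, with a median level of 78.2 FPKM over the 8 libraries. PVR (18.6 FPKM), ICAM1 (13.95), CD47 (13.4) and CD276 (10.98) followed. MICA had a median of 4.65 FPKM and ULBP2 of 2.26. CD274 (0.890), LGALS9 (0.804) and PDCD1LG2 (0.668) were the least abundant. The ranges over libraries overlapped for every pair of neighbors in this order. Of these 3, CD274 had the widest range, from 0.0751 to 13.0 FPKM.

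**Figure D1:**
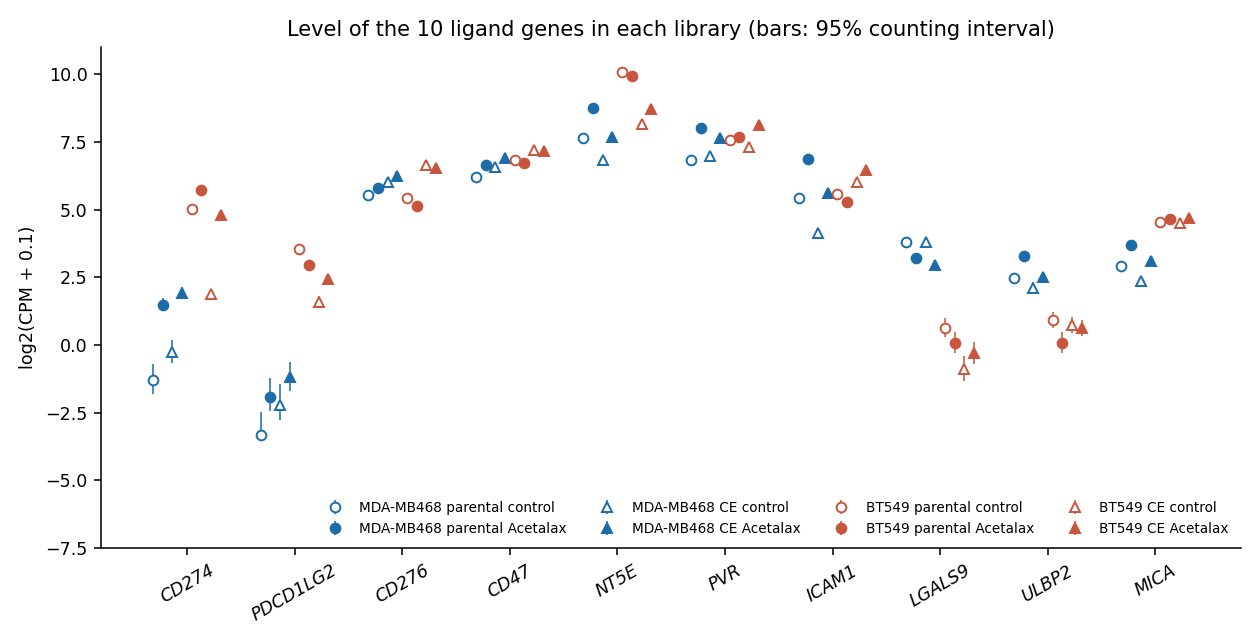
Levels of the 10 ligand genes as log2(CPM + 0.1) in each of the 8 libraries, with MDA-MB468 in blue, BT549 in red, circles for parental and triangles for CE cells, open for control and filled for Acetalax. Bars are 95% Wilson intervals and cover counting error only. CD274 and PDCD1LG2 lie low in MDA-MB468 and high in BT549, whereas CD276, CD47 and PVR lie within a narrow band.

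The first question was whether the level of each ligand differed between the lines. In the fit of all 8 libraries, edgeR called 7 of the 10 genes between BT549 and MDA-MB468, against a background of 56.8% of the 19693 genes tested, so the share among the ligands was close to that of all genes. Higher in BT549 were 5 ligand genes: PDCD1LG2 by 5.63 (log2 fold change, standard error 0.85, adjusted p = 0.00195), CD274 by 4.09 (0.73, 0.00378), MICA by 1.75 (0.25, 0.00151), NT5E by 1.66 (0.24, 0.00156) and CD47 by 0.56 (0.15, 0.0180). LGALS9 and ULBP2 were lower in BT549, with log2 fold changes of -3.53 (0.37, 0.00047) and -1.89 (0.38, 0.00647). CD276, PVR and ICAM1 did not pass, with 0.21 (adjusted p = 0.498), 0.47 (0.0862) and 0.52 (0.458). The levels of PDCD1LG2, LGALS9, ULBP2 and MICA did not overlap between the lines, which makes 4 of 10 genes beside 56.2% of the 14030 expressed genes (mean 1 CPM or more). The call of CD47 was lost when either pair of control libraries was left out (adjusted p = 0.0679 and 0.0792). The pairs of this fit are CE states and treatments of the same lines, so its p-values do not measure the spread among cell lines.

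CD274 encodes PD-L1, the ligand by which a tumor cell inhibits T cells through PD-1. The gene (ENSG00000120217) spans 5450503 to 5470566 of chromosome 9 in hg19, plus strand. In MDA-MB468 parental cells it had 0.309 CPM (95% Wilson interval 0.187 to 0.509) in the control and 2.697 CPM (2.27 to 3.20) after Acetalax. In MDA-MB468 CE cells it had 0.748 CPM (0.532 to 1.05) and 3.70 CPM (3.19 to 4.29). In BT549 parental cells the levels were 32.9 CPM (31.2 to 34.6) and 53.3 CPM (51.2 to 55.5), and in BT549 CE cells 3.61 CPM (3.14 to 4.16) and 27.7 CPM (26.3 to 29.2). Every treated library was thus above its own control by more than counting error, and the 2 lines met only where the treated MDA-MB468 CE library reached the BT549 CE control. The log2 ratio of treated to control, taken after adding 0.1 CPM, was 2.78 in MDA-MB468 parental, 2.17 in MDA-MB468 CE, 0.70 in BT549 parental and 2.90 in BT549 CE cells. Of the 14030 expressed genes (mean 1 CPM or more), 99.7%, 99.8%, 95.8% and 99.9% had a lower ratio in the same pairs.

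Fitted over the 4 backgrounds, CD274 rose by 2.25 on the log2 scale (standard error 0.40, adjusted p = 0.0377, edgeR). PVR was the other of the 2 ligand genes that passed, and 5.00% of the 19693 genes tested did. The call for CD274 was lost without the MDA-MB468 parental pair (2.05, adjusted p = 0.176), the BT549 CE pair (1.84, 0.0708) or the MDA-MB468 CE pair (2.21, 0.0544), while its direction remained in each. Its response did not differ detectably between CE and parental cells (difference 1.07, standard error 0.75, adjusted p = 1) or between BT549 and MDA-MB468 (-0.83, 0.80, 0.641). Both differences rested on single pairs. The first was -0.45 (adjusted p = 1) without the BT549 parental pair and 2.05 (adjusted p = 1) without the MDA-MB468 parental pair. The second was 0.37 (adjusted p = 0.689) without the BT549 parental pair, and it passed without the BT549 CE pair (-1.93, adjusted p = 0.00232).

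The 250 bases before the start of CD274, PVR and ICAM1 are shown because CD274 and PVR rose after Acetalax and ICAM1 had the largest difference in response between the lines by p-value among the 10. They are from RefSeq on GRCh38.p14, which holds an entry for 9 of the 10 genes (not for PDCD1LG2), and are written 5′ to 3′ on the strand of the gene. Capitals mark matches on either strand to GGNNNTTCC, a loose form of the NF-kB motif, or to TTCNNNGAA, the core of STAT sites. TGANTCA, the AP-1 motif, was searched too.
CD274 promoter, chr9:5450292-5450541, plus strand: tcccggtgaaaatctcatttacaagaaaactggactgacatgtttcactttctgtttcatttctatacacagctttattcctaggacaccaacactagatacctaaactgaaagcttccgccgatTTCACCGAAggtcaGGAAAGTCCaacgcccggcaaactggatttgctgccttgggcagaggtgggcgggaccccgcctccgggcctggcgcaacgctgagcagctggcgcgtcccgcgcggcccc
PVR promoter, chr19:44643660-44643909, plus strand: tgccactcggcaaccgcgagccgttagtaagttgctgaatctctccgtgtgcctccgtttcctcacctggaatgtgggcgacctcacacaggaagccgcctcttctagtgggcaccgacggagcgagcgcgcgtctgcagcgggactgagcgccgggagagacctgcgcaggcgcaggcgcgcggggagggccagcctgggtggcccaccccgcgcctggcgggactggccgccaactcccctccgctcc
ICAM1 promoter, chr19:10270870-10271119, plus strand: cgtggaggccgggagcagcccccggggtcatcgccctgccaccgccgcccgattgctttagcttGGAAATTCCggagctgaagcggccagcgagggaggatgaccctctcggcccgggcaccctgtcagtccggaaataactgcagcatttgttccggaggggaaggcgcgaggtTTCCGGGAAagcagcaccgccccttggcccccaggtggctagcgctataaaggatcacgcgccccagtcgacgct
CD274 and ICAM1 each held 1 match to the NF-kB letters and 1 to the STAT letters, at bases -111 to -103 and -125 to -117 from the start in CD274, and at -186 to -178 and -75 to -67 in ICAM1. PVR held neither, and none of the 10 windows of the 9 genes (CD276 has 2) held the AP-1 letters. Among 35116 promoter windows of the same length, 17.1% held the NF-kB letters, 6.57% the STAT letters and 6.57% the AP-1 letters. A stricter NF-kB form (GGG, 2 free letters, TTTCC) was in 1.73% of these windows and in 0 of the ligand genes, as was the CRE motif TGACGTCA (1.65%). The GC box GGGCGG was in 7 of the 9 ligand genes and 42.6% of windows, and the TATA letters TATAAA in ICAM1 alone of the 9 and 10.7% of windows. CD276 and NT5E were the other ligand genes with the NF-kB letters. The NF-kB and STAT matches do not overlap each other in these windows, and a match of letters is not evidence of binding.

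PDCD1LG2 encodes PD-L2, the second ligand of PD-1, and lies beside CD274 (chromosome 9, 5510545 to 5571282, plus strand). In MDA-MB468 it had 0 counts in parental control cells, which allows up to 0.0617 CPM, and 8 counts (0.165 CPM) after Acetalax. MDA-MB468 CE cells had 5 counts (0.113 CPM) in the control and 16 (0.336 CPM) after Acetalax. In BT549 its levels were 11.5 and 7.73 CPM in parental control and treated cells, and 2.91 and 5.30 CPM in CE control and treated cells. The treated library was thus lower than its control in BT549 parental cells and higher in BT549 CE cells, each by more than counting error. In MDA-MB468 parental cells the treated level was 2.67-fold the level of 3 counts in its control. Wilson intervals of control and treated cells nearly met there (0 to 0.079 and 0.0835 to 0.325 CPM). They overlapped in MDA-MB468 CE cells (0.0484 to 0.265 and 0.207 to 0.5465 CPM). The counting interval of the parental log2 ratio (-1.59 to 4.4), centered on the ratio with 0.1 CPM added, is only rough at such counts. The fitted change over the 4 backgrounds was 0.66 (standard error 0.48, adjusted p = 0.408). It was 1.44 (adjusted p = 0.158) without the BT549 parental pair and 0.31 (0.804) without the BT549 CE pair.

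Genes around CD274 had no ratio as high as its own after Acetalax. The 14 other expressed genes within 1 Mb, PDCD1LG2 included, had median log2 ratios of -0.07, -0.20, -0.15 and -0.17 in MDA-MB468 parental, MDA-MB468 CE, BT549 parental and BT549 CE cells. None of them reached the ratio of CD274 in any of the 4 pairs, nor did any of the 29 within 5 Mb. JAK2, a kinase of the interferon pathway that lies in the same stretch, had ratios of -0.25, -0.28, -0.64 and -1.29 in that order, and its fitted change of -0.53 did not pass (adjusted p = 0.112).

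**Figure D2:**
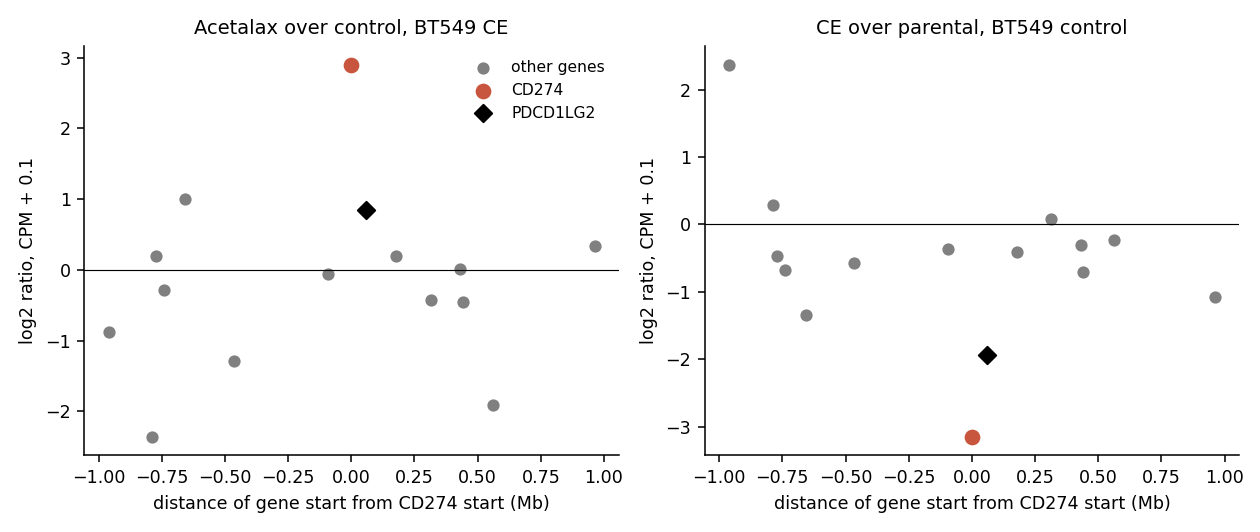
Log2 ratio (CPM + 0.1) of CD274 (red), PDCD1LG2 (diamond) and the other genes within 1 Mb of CD274 (grey) against the distance of each gene's start from that of CD274 in Mb, in BT549 cells. After Acetalax in CE cells (left) CD274 lies at 2.90, above every neighbor, and in CE against parental control cells (right) at -3.15, below every neighbor.

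CD276 (B7-H3) is a further B7 family protein, found on many tumors, whose receptor is not settled (chromosome 15, 73976307 to 74006859). Its levels in MDA-MB468 were 46.2 CPM in parental control, 55.9 in parental treated, 64.6 in CE control and 76.3 in CE treated cells. In BT549 they were 43.7, 34.95, 100.8 and 92.1 CPM in the same order. Treated libraries were higher than their controls in MDA-MB468 (log2 ratios 0.27 and 0.24) and lower in BT549 (-0.32 and -0.13). The ratio in BT549 CE cells changed its sign when the counts were scaled by TMM, so the direction there depended on the scaling. The fitted change was 0.11 (standard error 0.12, adjusted p = 0.613).

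PVR (CD155) binds TIGIT, which inhibits T and natural killer cells, and CD226, which activates them (ENSG00000073008, chromosome 19 of hg19, 45147098 to 45166850, plus strand). In MDA-MB468 it went from 115.1 to 256.9 CPM in parental and from 126.5 to 198.7 CPM in CE cells with Acetalax. In BT549 it had 189.5 and 204.6 CPM in parental control and treated cells, and 160.1 and 279.8 CPM in CE control and treated cells. Each of the 4 treated libraries was above all 4 control libraries, for PVR alone among the 10 genes; 4.05% of genes were apart in this way in either direction. The log2 ratios were 1.16, 0.65, 0.11 and 0.80 for MDA-MB468 parental, MDA-MB468 CE, BT549 parental and BT549 CE cells. Over the 4 backgrounds PVR rose by 0.77 (standard error 0.16, adjusted p = 0.0431, edgeR). The call was lost without the MDA-MB468 parental pair (0.63, adjusted p = 0.184), the BT549 CE pair (0.71, 0.0889) or the MDA-MB468 CE pair (0.80, 0.0708). PVR overlaps CEACAM19 on the same strand (mean 7.42 CPM) and an antisense gene (0.692 CPM), and since the authors' strand setting is not stated, a small part of its counts is uncertain.

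CD47 tells phagocytes not to engulf the cell, through SIRPA (chromosome 3, 107762145 to 107809872, minus strand). It was at 74.5 and 100.5 CPM in MDA-MB468 parental control and treated cells and at 95.5 and 119.5 CPM in the CE cells. In BT549 it was at 114.2 and 105.9 CPM in parental and at 147.9 and 143.7 CPM in CE cells. The treated libraries were higher in MDA-MB468 (log2 ratios 0.43 and 0.32) and slightly lower in BT549 (-0.11 and -0.04), the last within counting error and higher under TMM scaling. The fitted change of 0.24 (standard error 0.11) did not pass (adjusted p = 0.210).

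NT5E (CD73) is the enzyme that turns extracellular AMP into adenosine (chromosome 6, 86159809 to 86205500). It had 201.2 and 428.7 CPM in MDA-MB468 parental control and treated cells and 115.2 and 205.6 CPM in the CE cells. In BT549 it had 1099 and 993.5 CPM in parental and 289.9 and 418.6 CPM in CE cells. The treated library was higher in 3 of the 4 pairs and lower in BT549 parental cells, with log2 ratios of 1.09, 0.84, -0.15 and 0.53 for MDA-MB468 parental, MDA-MB468 CE, BT549 parental and BT549 CE cells. The fitted change was 0.67 (standard error 0.18, adjusted p = 0.0692), and without the BT549 parental pair it was 0.93 (adjusted p = 0.0354).

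LGALS9 encodes galectin-9, a secreted lectin that binds TIM-3 among other proteins (chromosome 17, 25956824 to 25976586, plus strand). Its level was 14.05 and 9.14 CPM in MDA-MB468 parental control and treated cells and 13.75 and 7.72 CPM in the CE cells. In BT549 it was 1.47 and 0.966 CPM in parental and 0.443 and 0.712 CPM in CE cells, from 24 to 62 counts per library. Treated libraries were lower than their controls in both MDA-MB468 pairs (log2 ratios -0.61 and -0.83). In BT549 parental cells the ratio of -0.56 was at the edge of counting error (interval -1.12 to 0.01). The ratio of 0.58 in BT549 CE cells was within it (-0.16 to 1.33). The fitted change was -0.36 (standard error 0.26, adjusted p = 0.417). LGALS9B and LGALS9C, near-identical copies of LGALS9, had at most 11 counts in any library, and reads shared by the copies are not counted by STAR, so the level of LGALS9 is uncertain.

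ULBP2 and MICA are ligands of NKG2D, an activating receptor of natural killer and T cells, and are induced by cell stress. Both lie on chromosome 6, ULBP2 from 150263136 to 150270371 and MICA from 31371356 to 31383092. ULBP2 was at 5.43 and 9.62 CPM in MDA-MB468 parental control and treated cells, at 4.24 and 5.66 CPM in the CE cells, and between 0.966 and 1.80 CPM in the 4 BT549 libraries. Its log2 ratios after Acetalax were 0.81, 0.41, -0.83 and -0.11 (fitted 0.21, standard error 0.28, adjusted p = 0.677), and the last was within counting error. MICA was at 7.57 and 12.9 CPM in MDA-MB468 parental control and treated cells and at 5.05 and 8.495 CPM in the CE cells. In BT549 it was at 23.0 and 25.3 CPM in parental and at 22.9 and 25.7 CPM in CE cells. MICA was thus higher after Acetalax in all 4 pairs (log2 ratios 0.76, 0.74, 0.14 and 0.17), but its fitted change of 0.54 (standard error 0.16) did not pass (adjusted p = 0.0818). CD274, PVR and MICA were the 3 of 10 genes that were higher in all 4 pairs, as were 11.8% of the 14030 expressed genes (mean 1 CPM or more). ULBP2 has close relatives in RAET1L and RAET1G (at most 3.54 and 3.15 CPM) and MICA in MICB (3.19 to 15.6 CPM), so these levels carry some uncertainty.

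ICAM1 is the adhesion protein that leukocyte integrins LFA-1 and Mac-1 bind (ENSG00000090339, chromosome 19 of hg19, 10381511 to 10397291, plus strand). In MDA-MB468 it had 43.1 and 116.8 CPM in parental control and treated cells and 17.3 and 48.8 CPM in CE control and treated cells. In BT549 it had 47.4 and 39.3 CPM in parental control and treated cells and 65.3 and 88.0 CPM in CE control and treated cells. Its log2 ratios were 1.44 and 1.49 in MDA-MB468 and -0.27 and 0.43 in BT549, so both MDA-MB468 pairs lay above both BT549 pairs. The fitted change over the 4 backgrounds was 0.87 (standard error 0.28, adjusted p = 0.101). The response was smaller in BT549 than in MDA-MB468 by 1.33 on the log2 scale, which did not pass at this threshold (-1.33, standard error 0.26, adjusted p = 0.0515). With DESeq2 size factors in place of TMM this difference passed (-1.34, adjusted p = 0.0456).

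**Figure D3:**
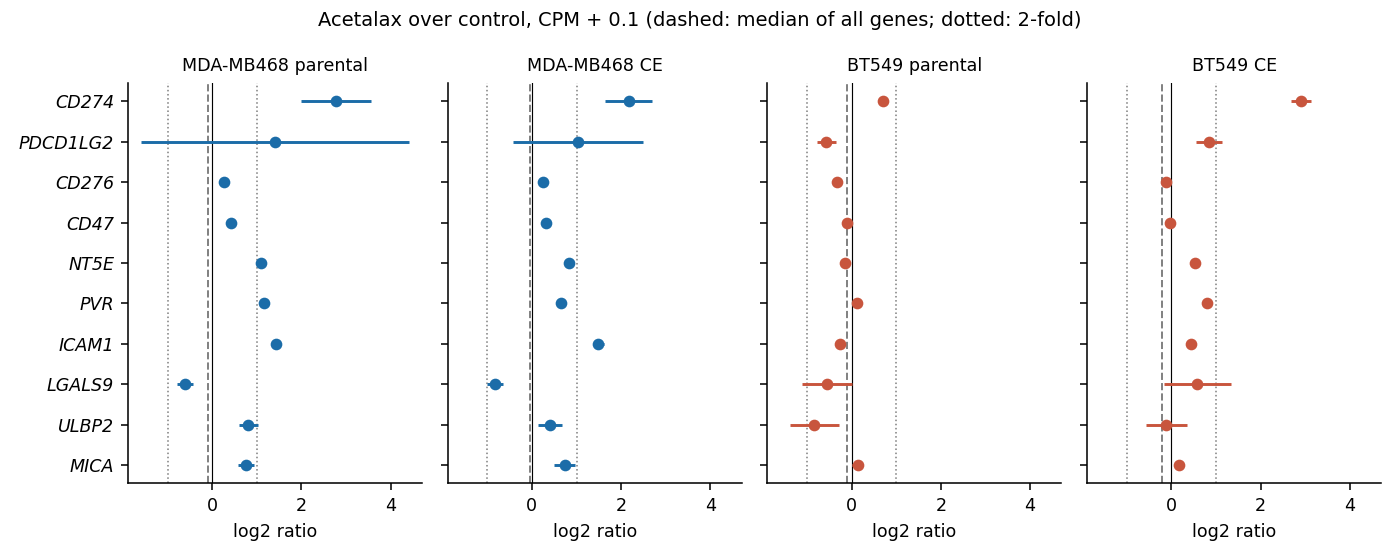
Log2 ratio of Acetalax to control CPM (0.1 added to each) for the 10 genes in each of the 4 backgrounds, with 95% counting intervals. The dashed line is the median of all genes, between -0.20 and -0.05, and dotted lines mark 2-fold. In both MDA-MB468 panels 9 of 10 genes lie above 0, beside 39.9% (parental) and 41.6% (CE) of expressed genes. In BT549 parental cells 3 of 10 do, beside 37.3%. The 10 genes were chosen with earlier results of these data known.

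Read by background, 9 of the 10 genes were higher in the treated library in MDA-MB468 parental cells (median log2 ratio 0.95, against -0.10 for all genes) and 9 in MDA-MB468 CE cells (0.69, against -0.05). In BT549 parental cells 3 were higher (-0.21, against -0.10) and in BT549 CE cells 7 (0.48, against -0.20). Of the 14030 expressed genes, 39.9% and 41.6% were higher in the MDA-MB468 parental and CE pairs. In the BT549 parental and CE pairs 37.3% and 34.9% were, so the 3 of 10 in BT549 parental cells were near the share of all genes. TMM scaling brought the median of all genes in BT549 CE cells to -0.05, and all 10 were then higher there. The share of all genes that were higher was not computed under TMM. Since the 10 genes were chosen with earlier results of these data known, these counts are not a test of the group. Past 2-fold were 5 genes in MDA-MB468 parental cells (CD274, PDCD1LG2, ICAM1, PVR and NT5E), where 8.64% of all genes were past 2-fold in either direction, and 3 in MDA-MB468 CE cells (CD274, ICAM1 and PDCD1LG2; 4.79%). None was past 2-fold in BT549 parental cells (4.26%), and in BT549 CE cells CD274 alone was (16.5%). The ratios of PDCD1LG2 in MDA-MB468 rest on 16 counts or fewer, where their counting intervals are only rough.

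Tested within parental cells, 0 of 10 genes passed (0% of all genes did), 2 had an unadjusted p under 0.05 in edgeR, and DESeq2 called 0. In all, 1710 genes had an unadjusted p under 0.05 there. In CE cells 0 of 10 passed (0% of all genes), 4 had an unadjusted p under 0.05 and DESeq2 called 1, CD274, and 2311 of all genes had an unadjusted p under 0.05. CD274 had log2 fold changes of 1.71 (standard error 0.53, adjusted p = 0.561) in parental and 2.78 (0.54, 0.297) in CE cells. PVR had 0.70 (0.25, 0.561) and 0.84 (0.25, 0.353). The difference of the response between CE and parental cells passed for 0 of 10 genes (0% of all genes), with 0 of them and 91 of all genes at an unadjusted p under 0.05 and 0 called by DESeq2. The difference between the lines passed for 0 of 10 genes (1.78% of all genes), with 6 of them and 3403 of all 19693 genes at an unadjusted p under 0.05. DESeq2 called 1 of them, ICAM1, and 926 of the 14103 genes to which it gave an adjusted p. Fits of such pairs leave 2 residual degrees of freedom, and a p that misses the threshold does not show equal responses.

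**Figure D4:**
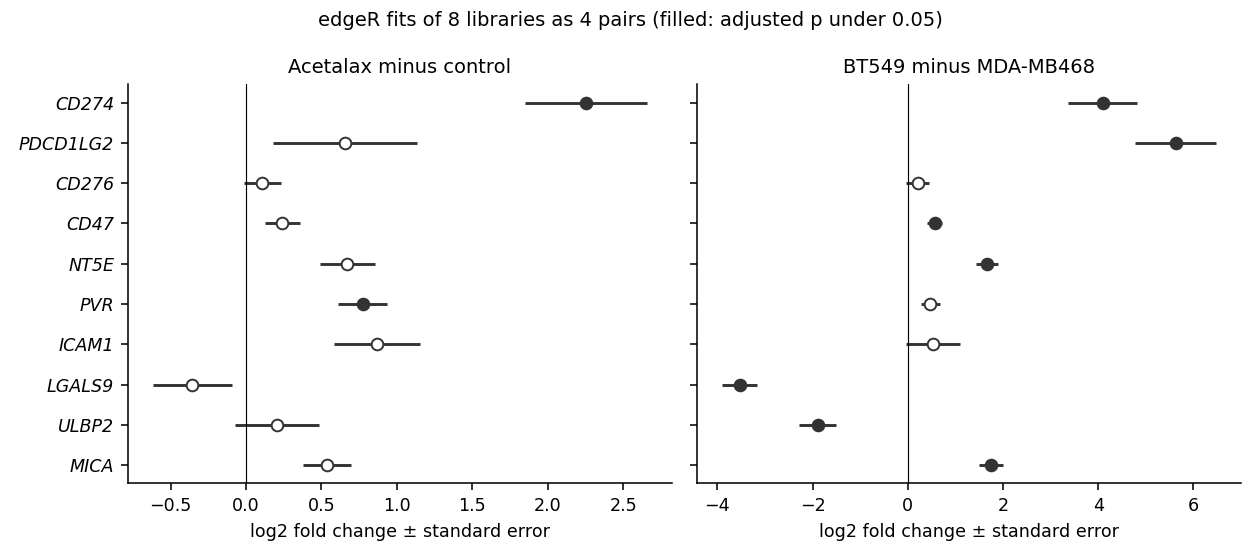
Fitted log2 fold changes with standard errors for the 10 genes from edgeR over 4 pairs of libraries, for Acetalax minus control (left) and BT549 minus MDA-MB468 (right). Filled points passed at an adjusted p under 0.05: CD274 (2.25) and PVR (0.77) on the left, and 7 genes on the right.

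The next comparison set CE cells, selected by growth in Acetalax, against parental cells of the same line. In BT549 control cells, 4 of the 10 genes were lower in CE cells by more than 2-fold: CD274 (log2 ratio -3.15), PDCD1LG2 (-1.94), NT5E (-1.92) and LGALS9 (-1.53), whereas CD276 was higher (1.21). Among all genes 13.3% were past 2-fold in either direction in this pair. In MDA-MB468 control cells CD274 (1.05) and PDCD1LG2 (1.09) were higher in CE cells and ICAM1 lower (-1.31), beside 4.61% of all genes. The ratio of CD274 there rests on 33 against 15 counts (counting interval 0.17 to 1.93). The median ratio of the 10 was 0.05 in MDA-MB468 and -0.22 in BT549, against 0.03 and -0.04 for all genes. The MDA-MB468 ratio of PDCD1LG2 rests on 5 counts against 0, which is 1.84-fold the level of 3 counts, and the Wilson intervals of these levels overlapped.

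CD274 had a lower ratio than any neighbor in this BT549 pair. The 14 other genes within 1 Mb had a median ratio of -0.44 and a range of -1.94 to 2.37, with PDCD1LG2 the lowest of them, and all 29 genes within 5 Mb lay above the ratio of CD274 (median -0.37). For NT5E the 36 genes within 5 Mb had a median ratio of -0.29 in the MDA-MB468 and of -0.39 in the BT549 pair, and 32 and 35 of them lay above it. Next to ICAM1, 45 of the 46 genes within 1 Mb were at or above its ratio in MDA-MB468 (median -0.36). The exception was ICAM5, a further ICAM that lies beside it, with -1.96. ICAM5 also had ratios of 1.58 and 1.01 after Acetalax in MDA-MB468 parental and CE cells.

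**Figure D5:**
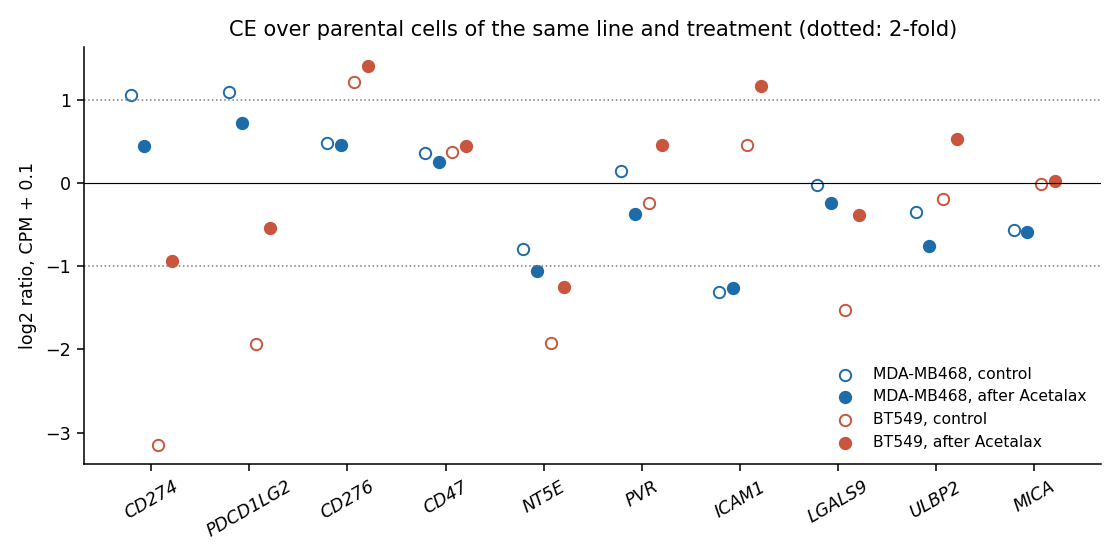
Log2 ratio of CE to parental CPM (0.1 added to each) for the 10 genes, within control libraries (open) and within Acetalax-treated libraries (filled) of MDA-MB468 (blue) and BT549 (red). CD276 and CD47 lie above 0 and NT5E and LGALS9 below 0 in all 4 pairs (LGALS9 at -0.03 in MDA-MB468 control cells). CD274, PDCD1LG2 and ICAM1 lie on opposite sides of 0 in the 2 lines.

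Acetalax-treated CE and parental cells gave a second pair for each line, from the same cell populations. NT5E was lower in CE cells in all 4 pairs (log2 ratios -0.80 and -1.06 in MDA-MB468 control and treated cells, -1.92 and -1.25 in BT549), and its fitted change was -1.23 (standard error 0.18, adjusted p = 0.0911). CD276 was higher in all 4 (0.48, 0.45, 1.21 and 1.40 in the same order, fitted 0.91, standard error 0.22, adjusted p = 0.190). CD47 was too (0.36, 0.25, 0.37 and 0.44, fitted 0.38, standard error 0.11, adjusted p = 0.225). LGALS9 was lower in all 4 (-0.03, -0.24, -1.53 and -0.39), the first within counting error. The share of all genes with the same sign in all 4 pairs was not computed. Over these 4 pairs edgeR called 0 of 10 genes (0.117% of all genes), and 3 of them and 2915 of all 19693 genes had an unadjusted p under 0.05. DESeq2 called 2 of them, NT5E and CD276, and 925 of the 16985 genes to which it gave an adjusted p. In the 4 control libraries alone edgeR called 0 of 10 (0% of all genes), 2 had an unadjusted p under 0.05 and DESeq2 called 0, and 610 of all genes had an unadjusted p under 0.05. This fit has 1 residual degree of freedom.

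Whether CE cells of the lines differed from their parental cells in unequal ways was tested after the opposite directions had been seen. ICAM1 had the lowest p of the 10 genes, though CD274 and PDCD1LG2 had larger differences with larger errors. Its log2 ratio of CE to parental was -1.31 and -1.26 in MDA-MB468 control and treated cells and 0.46 and 1.16 in BT549 (difference 2.23, standard error 0.26, adjusted p = 0.00157, edgeR), and it passed without any 1 pair. CD276 was higher in CE cells by more in BT549 than in MDA-MB468 (difference 0.97, standard error 0.17, adjusted p = 0.0106), but without the MDA-MB468 Acetalax pair it did not pass (1.00, adjusted p = 0.0513). These were 2 of 10 genes, where 12.2% of all genes passed. CD274 was lower in BT549 CE cells (-3.15 in control and -0.94 in treated cells) and higher in MDA-MB468 CE cells (1.05 and 0.44), and the difference of -2.57 (standard error 0.76) did not pass (adjusted p = 0.0704). It passed without the BT549 control pair (-1.36, adjusted p = 0.0221) and without the BT549 Acetalax pair (-3.75, 2.79e-05).

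Other genes of these families were read from lists, on the fitted change over the 4 backgrounds, where the median of all genes was -0.04 and 5.00% of them passed. Without the MDA-MB468 parental pair 0 genes passed in this fit. Of 15 tested B7 and TNF family ligands of T cells, 0 rose and 3 fell (median -0.29): BTN3A1 (-1.07, standard error 0.16, adjusted p = 0.0318), BTN3A2 (-0.87, 0.12, 0.0310) and BTN3A3 (-1.47, 0.23, 0.0327), butyrophilins that activate gamma-delta T cells. These are close copies of each other, so their counts are uncertain. BTN3A3 went from 16.99 to 3.95 CPM in MDA-MB468 parental, from 16.8 to 4.86 in MDA-MB468 CE, from 3.67 to 2.12 in BT549 parental and from 19.7 to 7.08 in BT549 CE cells. TNFSF9, the ligand of 4-1BB, had 17.6 and 46.4 CPM in BT549 parental and 13.3 and 57.8 CPM in BT549 CE control and treated cells, and no more than 2.88 CPM in MDA-MB468 (fitted 1.09, adjusted p = 0.128).

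Of 5 nectins and related proteins, the family of PVR, 0 rose and PVRL1 fell (-0.67, standard error 0.11, adjusted p = 0.0362; list median -0.13), while PVRL2, a second ligand of TIGIT and CD226, had log2 ratios between -0.05 and 0.17. Of 10 other ligands of natural killer cell receptors 0 passed (median 0.29). NCR3LG1, the ligand of NKp30, had log2 ratios of 1.68 and 1.22 in MDA-MB468 parental and CE cells and of -0.08 and 0.52 in BT549. CLEC2D, the ligand of CD161, had -0.93 and -1.23 in MDA-MB468 and 0.27 and -0.02 in BT549. Of 7 other adhesion ligands 0 passed (median 0.09). ICAM5 had ratios of 1.58, 1.01, 0.21 and 0.18 over the 4 pairs, and F11R, a junction protein that binds LFA-1, had ratios between -0.48 and 0.23.

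Beside CD47, THBS1 (thrombospondin 1, which binds CD47) was the 1 of 4 genes that passed and rose by 1.48 (standard error 0.22, adjusted p = 0.0318; list median 0.27). It went from 181.3 to 883.0 CPM and from 280.4 to 710.7 CPM in MDA-MB468 parental and CE cells, and from 1087 to 1764 CPM and from 816.7 to 1951 CPM in BT549. CD200 was at 0 in MDA-MB468 and at 1.05 to 3.19 CPM in BT549. Beside NT5E, ADORA2B, an adenosine receptor, was the 1 of 8 genes that passed and rose by 0.73 (standard error 0.16, adjusted p = 0.0463; list median 0.02), and ENTPD1 (CD39), which makes the AMP that NT5E uses, had -0.47 (adjusted p = 0.129). Of 6 other galectins 0 passed (median -0.04). LGALS1 had ratios between -0.11 and 0.04 and LGALS8 between -0.37 and 0.08.

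Of 12 genes of the interferon-gamma and NF-kB pathways, 2 rose and 0 fell (median 0.23). RELB, an NF-kB subunit, rose by 2.08 (standard error 0.26, adjusted p = 0.0286), from 12.2 to 83.0 CPM in MDA-MB468 parental, from 15.1 to 58.6 in MDA-MB468 CE, from 49.9 to 99.8 in BT549 parental and from 28.1 to 131.9 in BT549 CE cells. NFKBIA, the NF-kB inhibitor that NF-kB itself induces, rose by 0.69 (standard error 0.11, adjusted p = 0.0326). IRF1, a transcription factor of the interferon response, had log2 ratios of -0.48 to 0.24 and was chosen for naming after its values were seen.

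Of 9 partners and sheddases of these proteins 0 passed (median -0.03), with ADAM17, a protease that cleaves surface ligands, at ratios of -0.06 to 0.68 and SPOP, which marks PD-L1 for degradation, at -0.67 to -0.22. Of 5 tested receptors that belong to leukocytes, 1 rose, ITGAM (1.77, standard error 0.38, adjusted p = 0.0443; list median -0.05), at a level of 0.103 to 1.26 CPM. ITGB2 was at 0.0369 to 7.37 CPM and SIRPA at 9.28 to 75.2 CPM. Among the breast line markers KRT17 and EGFR rose (1.72 and 1.01) and ERBB2 fell (-0.70), 3 of 8 tested (median 0.31). KRT17 was at 270.2 to 1217 CPM in MDA-MB468 and at 0.166 to 0.277 CPM in BT549, so its rise rests on the MDA-MB468 pairs. Of 3 tested leukocyte markers 0 passed (median -0.17), with ratios of CD14 from -1.21 to 1.67 and of CSF1R from 0.10 to 1.15. TRPM4 RNA did not pass (-0.20, standard error 0.13, adjusted p = 0.362, edgeR). The study reports that Acetalax leads to loss of TRPM4 protein through the proteasome, which RNA does not measure.

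By levels across libraries, after the mean of each line was subtracted, the genes most like CD274 among 11135 genes were ZIC2, ALDH1A3 and TRMT61A (Pearson r = 0.983, 0.983 and 0.982 over 8 libraries). Those most like ICAM1 were TPM4, LEPREL1 and FNDC3A (0.967, 0.933 and 0.930). Among the ligand genes PDCD1LG2 was nearest to CD274 (0.889) and MICA nearest to ICAM1 (0.909), while CD274 and ICAM1 had a correlation of 0.181. The 8 libraries share lines and populations, so these values describe the libraries only.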

How the data were processed

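Polyadenylated RNA was sequenced from 8 samples, 1 per condition, grouped by the GEO labels. Per the labels and the study's methods, the authors aligned reads to hg19 with STAR (2.7.11b in the submitters' processing notes; the study's methods name another version) and deposited raw counts per gene. Which annotation and which strand column served is not given in the sources used here. The table has 58154 rows for 55679 identifiers; 1392 identifiers are repeated, 3 of them with differing counts, and each was used 1 time. CPM and FPKM were computed from total counts on genes and merged exon lengths. Ratios of 2 libraries are log2 after adding 0.1 CPM. Intervals are 95% Wilson or counting intervals and hold counting error alone, as amplified reads may copy 1 molecule. Counting intervals of ratios are centered on the ratio with 0.1 CPM added, so they are only rough at low counts. The floor is 3 counts.

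Differences were tested with edgeR 4.0.16 in R 4.3.3 (quasi-likelihood test, TMM, filterByExpr, Benjamini-Hochberg over all genes tested, threshold 0.05). Each library was paired with its partner of the same line and CE state (Acetalax), line and treatment (CE), or CE state and treatment (line). Pairs of a line share a cell population, so p-values measure the spread between these pairs. Alternatives were DESeq2 1.42.0, its size factors, no filter on low counts, leaving out each pair, no pairing, a pseudocount of 1 CPM and log2(FPKM+1). On simulated counts with 192 changed genes tested for Acetalax over 4 backgrounds (18838 genes), edgeR recovered 66.7% of 2-fold and 96.9% of 4-fold changes with 5 false calls. Recovery of 2-fold changes was lower in the other fits. It was 24.5% in parental cells, 27.6% in CE cells, 5.1% for the response between CE and parental cells and 34.3% for that between lines. For CE it was 2.06% in controls, 38.8% over 4 pairs and 39.4% between the lines, and for the line comparison 23.7%. The simulation gave each gene 1 mean level for all libraries, without differences between backgrounds.

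The members and lists were chosen with earlier results of these data known. Named beside the members were TRPM4, in each list the gene with the largest and the gene with the smallest mean Acetalax ratio among those with a mean of 1 CPM or more, genes within 1 Mb of a member, and the 3 genes most like CD274 and ICAM1. Other genes that passed in a list of which 5 or fewer did, and IRF1, were named after their values were seen. A gene of the lists is not reported here. All 10 members passed the filter.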

Additional observations from a re-analysis of the deposited data

Results flagged for a closer look

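Each result here was set apart by its direction, opposite in MDA-MB468 and BT549 in every pair, or by a passed test between the lines. Each line has 1 parental and 1 CE population. The share of all genes with opposite directions in every pair was not computed.

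After Acetalax, the mean log2 ratio of CD276 was -0.23 in BT549 and 0.26 in MDA-MB468, that of CD47 -0.08 and 0.38, and that of ULBP2 -0.47 and 0.61, each with both pairs of a line on the same side of 0. The tested differences (edgeR, BT549 minus MDA-MB468) were -0.43 (adjusted p = 0.2585), -0.40 (0.241) and -1.05 (0.216), so none passed. Under TMM scaling the BT549 CE pair of all 3 genes changed its sign.

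For CE against parental cells, over the control and the treated pair, the mean log2 ratio of CD274 was -2.05 in BT549 and 0.75 in MDA-MB468, that of PDCD1LG2 -1.24 and 0.91, and that of ICAM1 0.81 and -1.28. The tested difference between the lines passed for ICAM1 (2.229, adjusted p = 0.00157) and for CD276 (0.9665, adjusted p = 0.0106), whose ratios were above 0 in both lines. It did not pass for CD274 (adjusted p = 0.0704) or PDCD1LG2 (-2.60, adjusted p = 0.139). A line and its single CE population cannot be told apart in these differences.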

How the results depend on the processing

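Of the 10 ligand genes, edgeR called 2 for Acetalax over 4 backgrounds; DESeq2 called 5 and the fit of every gene with at least 1 count called 5 (CD274, PVR, NT5E, ICAM1 and MICA), the fit with no replicate block (without pairing) called 0 of 10 and 0 of all genes, and leaving out 1 pair gave from 0 (without the MDA-MB468 parental, BT549 CE or MDA-MB468 CE pair) to 3 (without the BT549 parental pair). Genes called in all went from 984 to 0, 263, 311 and 554 without 1 pair, to 2678 of 16264 with DESeq2 and to 3585 of 37154 without the filter. The 311, of 19105 genes, were called without the BT549 parental pair. In parental cells 0 became 2 without the filter and 0 to 1 without 1 pair; in CE cells 0 became 1 with DESeq2, 4 without the filter and 0 to 1 without 1 pair. For the response between lines 0 became 1 with DESeq2 size factors, 1 with DESeq2, 2 without the filter and 0 to 6 without 1 pair (6 without the BT549 CE pair). In that last fit 837 of 20510 genes were called, and with DESeq2 size factors 467 of 19693 were. For CE over 4 pairs 0 became 2 with DESeq2 and 1 without the filter. For CE between the lines 2 became 4 with DESeq2, 5 without the filter and 1 to 6 without 1 pair. The 6 were called without the BT549 Acetalax pair, where 2391 of 20572 genes were. Of 14103 genes, DESeq2 called 75 in place of 0 in parental cells and 289 in place of 0 in CE cells. For the response between lines it called 926 in place of 351, also of 14103. For CE it called 46 of 15094 in place of 0 in controls and 925 of 16985 in place of 23 over 4 pairs. Between the lines it called 2684 of 15544 in place of 2405 for CE. Without the filter these were 643, 1080, 1632, 45, 446 and 3533 of 37154 genes (34480 for CE in controls). The response between CE and parental cells then had 3 in place of 0. Leaving out 1 pair gave 0 to 182 in parental cells, 0 to 207 in CE cells, 0 to 2 for the response between CE and parental cells, 100 to 1359 for that between lines, 0 to 10 for CE over 4 pairs and 1294 to 2908, in place of 2405, for CE between the lines. The cause of these changes was not tested. No called fold change or ratio past 2-fold reversed. The control libraries alone could not be fitted without 1 line.

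Of 60 ratios of 2 libraries, 56 kept their sign under TMM and under DESeq2 size factors and 60 under a pseudocount of 1 CPM and log2(FPKM+1); the largest that changed sign was 0.131 in size. Of 17 ratios past 2-fold, 17 remained so under TMM, 16 under DESeq2 size factors, 12 with a pseudocount of 1 CPM and 10 on the log2(FPKM+1) scale. Depth limits PDCD1LG2 in MDA-MB468, CD274 in MDA-MB468 control cells and LGALS9 in BT549.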
